A study of Mus musculus with 12 samples.

Results

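Keratins and other intermediate filaments were followed here through 10 genes, taken by their symbols from a table of 48440 features: the keratin genes Krt7, Krt8, Krt18, Krt19, Krt5 and Krt10, the vimentin gene Vim, the nestin gene Nes, the synemin gene Synm and the lamin A/C gene Lmna. The RNA came from pillar cells and from Deiters' cells, both supporting cells of the organ of Corti, the sensory epithelium of the cochlea, and the comparison addressed here is which filament genes differ between them. All libraries came from adult mice of the CBA/J strain, aged 28 to 32 days, with no treatment named. Cells were dissociated with enzyme, recognised by their shape and drawn up individually with suction pipettes, about 1000 per library, so that each library pools cells of several mice. There were 3 libraries of pillar cells and 3 of Deiters' cells, each sequenced in 2 lanes, whose values were averaged. Expression is given in RPKM, which divides the reads of a gene by the length of its transcript and by the mapped reads of the lane.

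Intermediate filaments are rope-like polymers that give cells mechanical strength. Keratins are obligate partners, a type I chain (here Krt18, Krt19 and Krt10) with a type II chain (Krt7, Krt8 and Krt5), and Krt8, Krt18, Krt19 and Krt7 are the keratins of simple, single-layered epithelia. Vimentin is a type III chain that polymerises alone, nestin and synemin are large chains that join filaments of other types, and lamins line the inside of the nuclear envelope. Supporting cells of the organ of Corti, which carry mechanical load between the hair cells and the basilar membrane, are known to contain keratins and vimentin.

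Of the 10 genes, 9 averaged over 0.1 RPKM in pillar or Deiters' libraries and were tested, and Krt5 was listed at 0 in all 12 lanes. A gene was called higher in a cell type at a Benjamini-Hochberg adjusted p of at most 0.01 (limma, over 17188 genes) and a difference of at least 2-fold on the scale log2(RPKM + 0.1), which understates the change of low genes. Nes was called higher in pillar cells, and Krt8, Krt18, Krt19 and Synm were called higher in Deiters' cells. That is 1 of the 9 tested genes in the pillar direction, against 14.7% of all genes tested, and 4 of the 9 in the Deiters' direction, against 14.0% of all genes tested. The remaining 4, Krt7, Krt10, Vim and Lmna, were not called. The libraries of the cell types did not overlap for 2 of the 9 genes in the pillar direction, against 37.6% of all genes tested, and for 6 in the Deiters' direction, against 38.9%. The median log2 fold change of the 9 genes, pillar minus Deiters', was -0.57, against 0.00074 over all genes tested. The shares of all genes called, 14.7% in the pillar direction and 14.0% in the Deiters' direction, also stand beside the counts of the gene lists below.

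**Figure D1:**
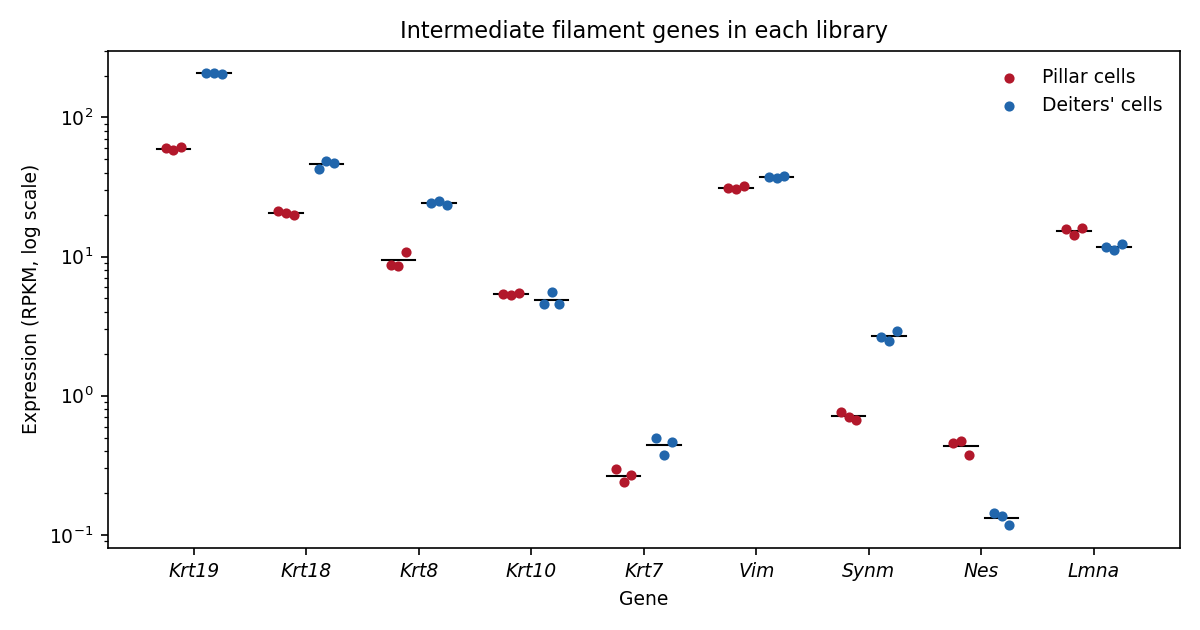
Expression of the 9 genes with a value above 0 in each library, in RPKM on a log axis, with pillar cells to the left in red and Deiters' cells to the right in blue; points are libraries and lines are means of 3. The points of the cell types overlap for Krt10 and lie apart for the other genes shown.

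The most abundant of the 10 genes in both cell types was Krt19, the smallest type I keratin. Krt19 had 60.3, 58.1 and 61.0 RPKM in the pillar libraries, against 207.5, 207.6 and 206.2 RPKM in the Deiters' libraries. The ranges lay far apart, and every Deiters' library was higher. The mean was 59.8 ± 1.54 RPKM in pillar cells, against 207 ± 0.801 RPKM in Deiters' cells (SD, n = 3 each), 3.46 times as high in Deiters' cells, with a log2 fold change of -1.79 (SE 0.03, limma adjusted p = 6.5e-08). By mean RPKM, Krt19 ranked 1052 among all features in pillar cells, against 242 in Deiters' cells. The values rest on 2058 to 2257 reads per pillar library and 7130 to 8299 reads per Deiters' library, and among Deiters' libraries they varied by 0.387%, less than the 1.15% that counting alone gives. In bulk RNA, fewer cells with a transcript cannot be told apart from less of it in each cell, here and for each gene that follows.

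Krt18, a type I keratin and the usual partner of Krt8, had 21.4, 20.7 and 20.0 RPKM in pillar libraries, against 42.8, 48.3 and 47.0 RPKM in Deiters' libraries. The groups did not overlap, and the mean of 20.7 ± 0.716 RPKM in pillar cells, against 46.1 ± 2.87 RPKM in Deiters' cells (SD, n = 3 each), gave a log2 fold change of -1.15 (SE 0.05, limma adjusted p = 4.6e-06). Krt8, the type II partner, had 8.72, 8.61 and 10.9 RPKM in pillar libraries, against 24.5, 25.2 and 23.7 RPKM in Deiters' libraries. These groups were separate as well, with the third pillar library the highest of its group. The log2 fold change of Krt8 was -1.38 (SE 0.09, limma adjusted p = 2.3e-05), and its mean was 2.60 times as high in Deiters' cells. Among pillar libraries Krt8 varied by 13.5%, where counting gives 5.50%. Without the third pillar library its log2 fold change was -1.48.

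Krt8 and Krt18 lie head to head on chromosome 15 in GRCm38 (GENCODE M21). Krt8 is at chr15:101996698-102004482 on the minus strand and Krt18 at chr15:102028180-102032027 on the plus strand. Between them are 23697 bases, with 0 annotated genes wholly inside. Genes that reach in from either side were not counted. Krt18 is the type I gene in this neighbourhood, since the other type I genes of the table are on chromosome 11, where Krt19 is at chr11:100140810-100148665 on the minus strand. A processed pseudogene can share reads with its parent. Krt8-ps matched Krt8 over 941 exonic bases at 98.6% identity and was listed at 0 in both cell types, and Gm5200 matched Krt18 over 1267 bases at 90.5% identity and was not analysed here. Krt8 also shares 101 exonic bases with Gm36026 on the other strand, and the counting is not stated to use strand, so those reads cannot be told apart.

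The promoters of 9 of the 10 genes were found in a RefSeq table for GRCm38.p6, which spans 250 bases before and 50 bases after the start. Those shown are the 3 available promoters of genes called higher in Deiters' cells and, for contrast, that of Nes, the gene called higher in pillar cells. The sequences run 5′ to 3′ on the gene's strand, and capitals mark matches on either strand to GGGCGG (the GC box) or TATAAA (the TATA box). They are at chr15:102004293-102004592 (minus strand) for Krt8, chr15:102027966-102028265 (plus strand) for Krt18, chr7:67759693-67759992 (minus strand) for Synm and chr3:87970843-87971142 (plus strand) for Nes.
Krt8 promoter: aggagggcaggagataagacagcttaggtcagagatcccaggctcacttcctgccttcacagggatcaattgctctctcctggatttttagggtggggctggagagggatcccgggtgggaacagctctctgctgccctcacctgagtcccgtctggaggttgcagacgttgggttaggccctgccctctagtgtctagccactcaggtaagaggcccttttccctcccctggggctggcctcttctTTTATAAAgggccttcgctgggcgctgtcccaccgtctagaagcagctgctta
Krt18 promoter: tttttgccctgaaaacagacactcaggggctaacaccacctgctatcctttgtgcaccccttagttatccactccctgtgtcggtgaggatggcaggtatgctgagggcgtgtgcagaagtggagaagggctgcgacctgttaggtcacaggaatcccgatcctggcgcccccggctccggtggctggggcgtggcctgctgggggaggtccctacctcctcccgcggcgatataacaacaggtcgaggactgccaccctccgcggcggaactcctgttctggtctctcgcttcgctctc
Synm promoter: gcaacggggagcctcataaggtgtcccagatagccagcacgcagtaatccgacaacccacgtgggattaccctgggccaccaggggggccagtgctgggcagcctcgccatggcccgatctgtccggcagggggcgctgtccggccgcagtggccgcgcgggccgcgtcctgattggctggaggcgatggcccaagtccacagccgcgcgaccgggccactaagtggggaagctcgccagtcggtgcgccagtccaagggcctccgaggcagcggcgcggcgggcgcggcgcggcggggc
Nes promoter: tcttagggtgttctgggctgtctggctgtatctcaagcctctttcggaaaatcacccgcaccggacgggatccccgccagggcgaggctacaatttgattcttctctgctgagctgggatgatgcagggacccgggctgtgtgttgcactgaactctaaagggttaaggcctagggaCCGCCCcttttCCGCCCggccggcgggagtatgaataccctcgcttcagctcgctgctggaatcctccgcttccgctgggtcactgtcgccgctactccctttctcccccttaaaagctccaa
The Krt8 window held 2 overlapping TATAAA matches, 1 on each strand, right at the annotated start. Krt18 and Synm held no match to either motif or to TGANTCA (the AP-1 site), and Nes held 2 GC boxes. Of 32851 mouse promoters of the same length, 35.7% held a GC box, 13.6% a TATAAA match and 7.81% a TGANTCA match on either strand. The G and C content was 58.0% for Krt8, 61.3% for Krt18, 72.7% for Synm and 58.7% for Nes, against a median of 52.7% over all promoters. CpG pairs numbered 6 in Krt8, 17 in Krt18, 33 in Synm and 18 in Nes. A match is a description of these letters only.

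Krt7, a type II keratin of ducts and other simple epithelia, was near the lower limit. It had 0.295, 0.238 and 0.267 RPKM in pillar libraries, against 0.493, 0.375 and 0.464 RPKM in Deiters' libraries. All Deiters' libraries were above all pillar libraries, but the log2 fold change of -0.57 (SE 0.15) passed neither the threshold on the adjusted p (0.0128, limma) nor the 2-fold difference. The values rest on 32 to 42 reads per pillar library and 51 to 75 reads per Deiters' library, and 2 lanes of pillar cells differed by up to 2.03 times. The log2 fold change was -0.19 with a pseudocount of 1 RPKM and -0.28 in the first of 2 sets of lanes. Krt7 was scaled by a length of 7055 bases, longer than the 1400 to 1855 bases used for Krt8, Krt18 and Krt19, which lowers its RPKM at a given number of reads.

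**Figure D2:**
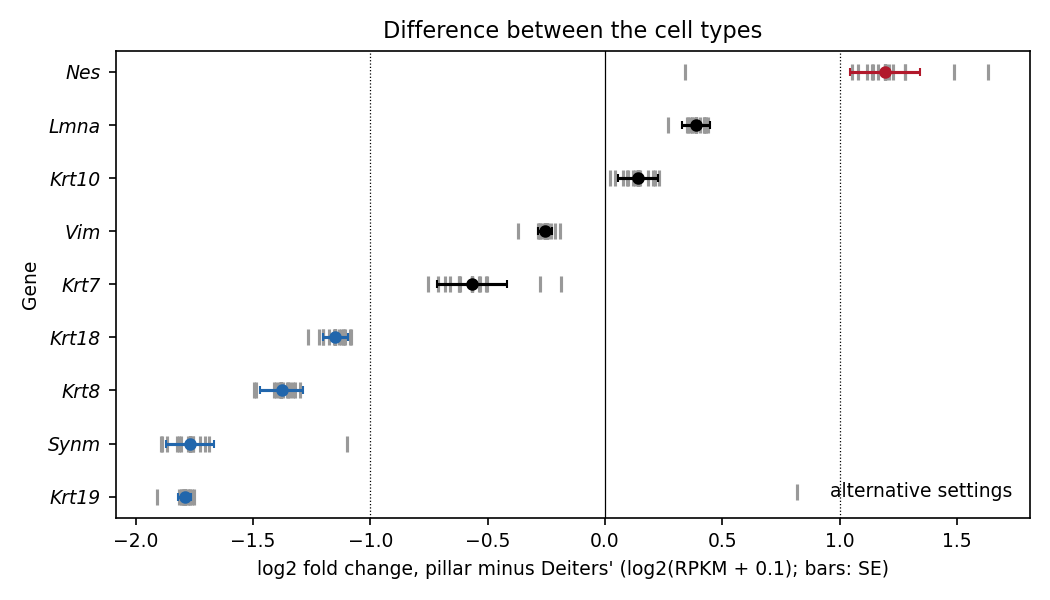
Difference between the cell types as log2 fold change, pillar minus Deiters', on the log2(RPKM + 0.1) scale, with the standard error as a bar; blue marks genes called in Deiters' cells, red the gene called in pillar cells, and black those not called, and grey ticks are the same value under other settings. Nes runs from 0.34 to 1.63 over the settings, while Krt19 stays between -1.91 and -1.75.

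The balance between keratin types was then compared within each library, which does not depend on the scaling of the library. Type II keratins summed to 0.104, 0.102 and 0.126 of the type I sum in pillar libraries, against 0.0965, 0.0972 and 0.0921 in Deiters' libraries. By RPKM, type I RNA thus exceeded type II RNA by 7.96 to 9.83 times in pillar cells and 10.3 to 10.9 times in Deiters' cells. The groups did not overlap, with a log2 difference of 0.21 (exact two-sided permutation p = 0.1, the smallest that 3 against 3 allows, and adjusted p = 0.133 over 4 ratios). Without the third pillar library the difference was 0.11. With the second lane alone it was 0.13 and with the second of 2 sets of lanes alone 0.17, each with an exact p of 0.4.

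The ratio of Krt8 to Krt18 did not separate the cell types. It was 0.407, 0.417 and 0.543 in pillar libraries, against 0.571, 0.522 and 0.503 in Deiters' libraries, so that the third pillar library lay within the Deiters' range. The log2 difference was -0.23 (exact permutation p = 0.3, also 0.3 adjusted over 4 ratios), and over other settings it lay between -0.37 and -0.14. In both cell types, then, Krt18 RNA exceeded Krt8 RNA by 1.75 to 2.46 times per length.

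Krt19 took 59.3 ± 0.369% of the summed keratin RPKM in pillar cells, against 72.0 ± 0.951% in Deiters' cells (SD, n = 3 each). The Krt18 share was 20.5 ± 0.861% in pillar cells, against 16.0 ± 0.815% in Deiters' cells, and the Krt8 share 9.32 ± 1.13% in pillar cells, against 8.50 ± 0.221% in Deiters' cells. Krt19 exceeded Krt18 by 2.81 to 3.05 times in pillar libraries and 4.29 to 4.84 times in Deiters' libraries. The keratin sum itself was 98.5 to 102.3 RPKM in pillar libraries and 284.2 to 291.8 RPKM in Deiters' libraries.

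**Figure D3:**
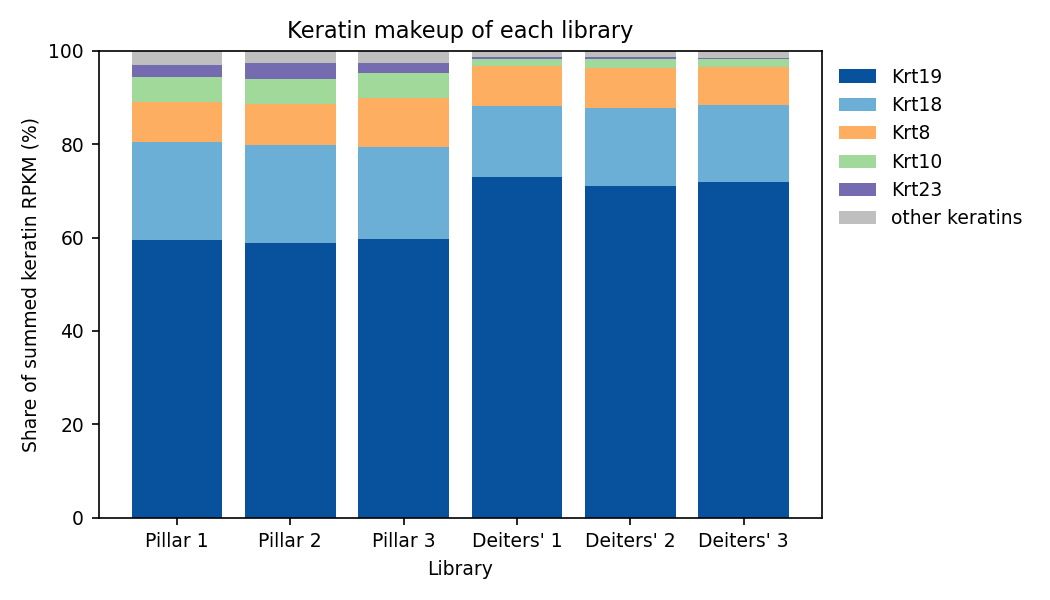
Share of each keratin gene in the summed keratin RPKM of a library, in percent, for the 3 pillar libraries and then the 3 Deiters' libraries. Krt19 makes up 59.3% on average in pillar cells, against 72.0% in Deiters' cells, and Krt10 5.33% in pillar cells, against 1.70% in Deiters' cells.

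Of the keratins of layered epithelia, Krt10 was present and Krt5 was not detected. Krt10, a type I keratin of the upper layers of the epidermis, had 5.37, 5.30 and 5.46 RPKM in pillar libraries, against 4.59, 5.52 and 4.54 RPKM in Deiters' libraries. The groups overlapped, and the log2 fold change of 0.14 (SE 0.08, limma adjusted p = 0.169) did not pass. The overlap rests on the second Deiters' library, without which the log2 fold change was 0.23 (limma adjusted p = 0.0094), still under 2-fold. Its share of the keratin sum was 5.33 ± 0.0467% in pillar cells, against 1.70 ± 0.170% in Deiters' cells (SD, n = 3 each). Krt10 shares 146 exonic bases with the antisense gene Gm11940, whose reads cannot be told apart without strand.

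Krt5, the type II keratin of basal cells, was listed at 0 in every lane, where 3 reads in a library would have given 0.0633 to 0.0733 RPKM. Its partner Krt14 was also listed at 0 in every library, as were Krt6a and Dsg3 of the same layered epithelia. Krt1, the type II partner of Krt10 in epidermis, had 0.345, 0.257 and 0.192 RPKM in pillar libraries, against 0.0571, 0.0849 and 0.0439 RPKM in Deiters' libraries, and was called higher in pillar cells (log2 fold change 1.16, limma adjusted p = 0.0025), having passed the 0.1 RPKM filter through the pillar libraries alone. Both its levels were far under those of Krt10.

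The table held 54 keratin genes, 27 on chromosome 11 and 27 on chromosome 15, and 38 of them were listed at 0 in all libraries. Of the 12 that averaged over 0.1 RPKM in pillar or Deiters' libraries, 8 were on chromosome 11 and 4 on chromosome 15. Beside the 5 tested keratins among the 10 genes, 7 others were tested, of which Krt23 and Krt1 were called higher in pillar cells, and Krt40 in Deiters' cells. The type I keratin gene Krt23 had 2.56, 3.41 and 2.13 RPKM in pillar libraries, against 1.10, 1.03 and 0.994 RPKM in Deiters' libraries (log2 fold change 1.27, limma adjusted p = 0.00055). Krt40 was listed at 0 in every pillar library and had 0.211, 0.629 and 0.325 RPKM in Deiters' libraries, through which alone it passed the filter. The other 4, Krt13, Krt15, Krt36 and Krt222, lay between 0.115 and 1.67 RPKM and were not called.

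Vimentin RNA differed by less than 2-fold between the cell types. Vim had 31.0, 30.8 and 32.3 RPKM in pillar libraries, against 37.6, 36.8 and 38.0 RPKM in Deiters' libraries. All Deiters' libraries were higher, and the log2 fold change of -0.26 (SE 0.03, limma adjusted p = 0.00034) passed the adjusted p but not the 2-fold difference. Set against the keratins, Vim came to 0.311 ± 0.00533 of the keratin sum in pillar cells, against 0.130 ± 0.0036 in Deiters' cells (SD, n = 3 each). The groups did not overlap, with a log2 difference of 1.26 (exact two-sided permutation p = 0.1, the smallest possible, and adjusted p = 0.133 over 4 ratios).

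The chains known to join vimentin filaments went in opposite directions. Synm had 0.762, 0.707 and 0.664 RPKM in pillar libraries, against 2.62, 2.46 and 2.91 RPKM in Deiters' libraries. Every Deiters' library was above every pillar library, 3.75 times by the means, with a log2 fold change of -1.77 (SE 0.10, limma adjusted p = 1.2e-05) on 101 to 122 reads per pillar library and 376 to 449 per Deiters' library. Synm, at chr7:67730160-67759742 on the minus strand, shares 426 exonic bases with Gm45102, which was listed at 0, and 84 with Ttc23, both on the other strand. With a pseudocount of 1 RPKM the log2 fold change of Synm was -1.10, still called.

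Nestin, known from neural progenitors and other immature or regenerating cells, was low in both. Nes had 0.456, 0.473 and 0.374 RPKM in pillar libraries, against 0.144, 0.138 and 0.117 RPKM in Deiters' libraries. The groups were separate, and the log2 fold change was 1.19 (SE 0.15, limma adjusted p = 0.00039). This rests on few reads, 46 to 59 per pillar library and 14 to 20 per Deiters' library, and the call was lost with a pseudocount of 1 RPKM, where the log2 fold change was 0.34.

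Among 11 further filament genes outside the keratins, 9 were tested, with 2 called higher in pillar cells, against 3 in Deiters' cells. Desmin (Des), the type III chain of muscle, had 1.68, 1.79 and 1.83 RPKM in pillar libraries, against 0.617, 0.539 and 0.272 RPKM in Deiters' libraries (log2 fold change 1.75, limma adjusted p = 0.00076). The glial chain Gfap had 0.751, 0.795 and 0.889 RPKM in pillar libraries, against 0.166, 0.308 and 0.254 RPKM in Deiters' libraries (log2 fold change 1.43, limma adjusted p = 0.00052). In the other direction, the neurofilament light chain Nefl had 8.74, 7.07 and 8.48 RPKM in pillar libraries, against 17.0, 17.3 and 19.9 RPKM in Deiters' libraries (log2 fold change -1.15, limma adjusted p = 6.8e-05). Of the 9 tested, only Ina overlapped between the cell types, and it was not called (log2 fold change -0.53, limma adjusted p = 0.0759). Over all genes tested, 37.6% did not overlap in the pillar direction and 38.9% in the Deiters' direction. The medium and heavy neurofilament chains Nefm and Nefh had log2 fold changes of -0.80 and -0.98 and were not called. Nefh passed the adjusted p (2.9e-05, limma) but not the 2-fold difference, and Nefm (0.0234, limma) passed neither. The lens chain Bfsp1, also called in Deiters' cells, was listed at 0 in pillar libraries and had 0.233, 0.109 and 0.202 RPKM in Deiters' libraries, through which alone it passed the filter, and the third called there was Lmnb1, described with the lamins. Prph and Bfsp2 were listed at 0 in all libraries.

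Lmna, which encodes the A-type lamins that stiffen the nucleus, had 15.7, 14.3 and 16.1 RPKM in pillar libraries, against 11.7, 11.2 and 12.3 RPKM in Deiters' libraries. Every pillar library was higher, and the log2 fold change of 0.39 (SE 0.06, limma adjusted p = 0.0011) passed the adjusted p but not the 2-fold difference. The B-type lamin gene Lmnb1 had 0.352, 0.354 and 0.369 RPKM in pillar libraries, against 1.87, 1.89 and 1.56 RPKM in Deiters' libraries, and was called higher in Deiters' cells (log2 fold change -2.03, limma adjusted p = 1.2e-05). Lmnb2, the other B-type gene, had 2.16 ± 0.258 RPKM in pillar cells, against 3.17 ± 0.394 RPKM in Deiters' cells (SD, n = 3 each). Its log2 fold change of -0.53 passed the adjusted p (0.0085, limma) but not the 2-fold difference, so it was not called. The ratio of Lmna to the B-type sum was 5.79, 6.42 and 6.13 in pillar libraries, against 2.21, 2.12 and 2.88 in Deiters' libraries. The A-type share was thus higher in all pillar libraries, with a log2 difference of 1.36 (exact two-sided permutation p = 0.1, the smallest possible, and adjusted p = 0.133 over 4 ratios).

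**Figure D4:**
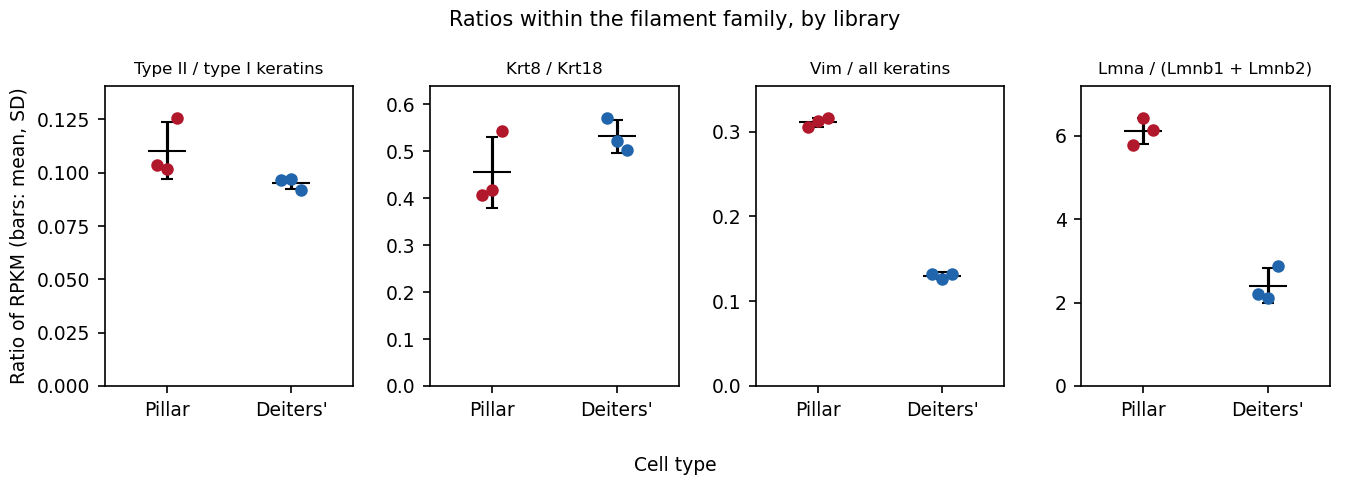
The 4 ratios formed within a library, from RPKM: type II over type I keratins, Krt8 over Krt18, Vim over the keratin sum and Lmna over the B-type lamins, with pillar cells left in red and Deiters' cells right in blue; points are libraries and bars the mean and SD of 3. Pillar and Deiters' points overlap for Krt8 over Krt18 and are separate in the other panels.

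Of 15 genes of the nuclear lamina and of the LINC complex, which ties the nucleus to the cytoskeleton, 14 were tested, with 2 called higher in pillar cells, against 1 in Deiters' cells. Over all genes tested, 14.7% were called in the pillar direction and 14.0% in the Deiters' direction. The nesprin gene Syne4, whose protein is known to anchor the outer hair cell nucleus in mouse, had 34.1 ± 1.82 RPKM in pillar cells, against 6.81 ± 0.363 RPKM in Deiters' cells (SD, n = 3 each). Its log2 fold change was 2.31 (limma adjusted p = 4.1e-07), and that of Syne1, with 1.23 RPKM in pillar cells, against 0.0156 RPKM in Deiters' cells, was 3.53. Syne1 passed the filter through the pillar libraries alone. Emd, the gene of emerin, an inner nuclear membrane protein that binds lamin A, went the other way with 0.517 ± 0.105 RPKM in pillar cells, against 3.46 ± 0.313 RPKM in Deiters' cells (log2 fold change -2.54, limma adjusted p = 1.2e-05). The median log2 fold change of the 14 was -0.03. Hair cell markers, given further on, were also higher in pillar cells, and their part in the Syne4 level was not tested.

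Cytolinkers are proteins that bind filaments to each other, to microtubules or to the desmosome plaque. Of 15 such genes, 12 were tested, with 2 called higher in pillar cells, against 0 in Deiters' cells (limma; at an unadjusted p under 0.05 there were 2 in the Deiters' direction). Over all genes tested, 14.7% were called in the pillar direction and 14.0% in the Deiters' direction. The giant plakin Dst had 3.45 ± 0.182 RPKM in pillar cells, against 0.767 ± 0.0504 RPKM in Deiters' cells (log2 fold change 2.03, limma adjusted p = 3.6e-06), and its relative Macf1 had 4.34 ± 0.241 RPKM in pillar cells, against 1.30 ± 0.103 RPKM in Deiters' cells (log2 fold change 1.66, limma adjusted p = 7.3e-06). Plectin (Plec) and desmoplakin (Dsp), with log2 fold changes of 0.68 and 0.95, passed the adjusted p but not the 2-fold difference, as did Jup at 0.22 and Dtna at 0.27 in the same direction and Pkp4 at -0.47 in the other. The median of the 12 was 0.32.

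The desmosome membrane list had 8 genes, of which Dsg2, Dsc2 and Perp were tested and 0 were called in either direction (limma; at an unadjusted p under 0.05 there were 3 in the pillar direction), although all 3 passed the adjusted p with log2 fold changes of 0.64, 0.88 and 0.56. The other 5, the desmosomal cadherins of layered epithelia, were listed at 0 in both cell types.

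Of 11 small heat shock proteins, kinases and adaptors known to act on filaments, 2 were called higher in pillar cells, against 2 in Deiters' cells. Over all genes tested, 14.7% were called in the pillar direction and 14.0% in the Deiters' direction. The filament chaperone Cryab had 343.7 ± 8.69 RPKM in pillar cells, against 746 ± 19.8 RPKM in Deiters' cells (log2 fold change -1.12, limma adjusted p = 5.9e-07), and Hspb8, of the same protein family, had 8.22 ± 0.302 RPKM in pillar cells, against 2.71 ± 0.206 RPKM in Deiters' cells (log2 fold change 1.57, limma adjusted p = 3.9e-06). Sfn, whose 14-3-3 protein binds keratins, was higher in pillar cells (log2 fold change 1.50). The kinase gene Aurkb was listed at 0 in pillar libraries and had 0.897, 0.740 and 0.728 RPKM in Deiters' libraries, through which alone it passed the filter.

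**Figure D5:**
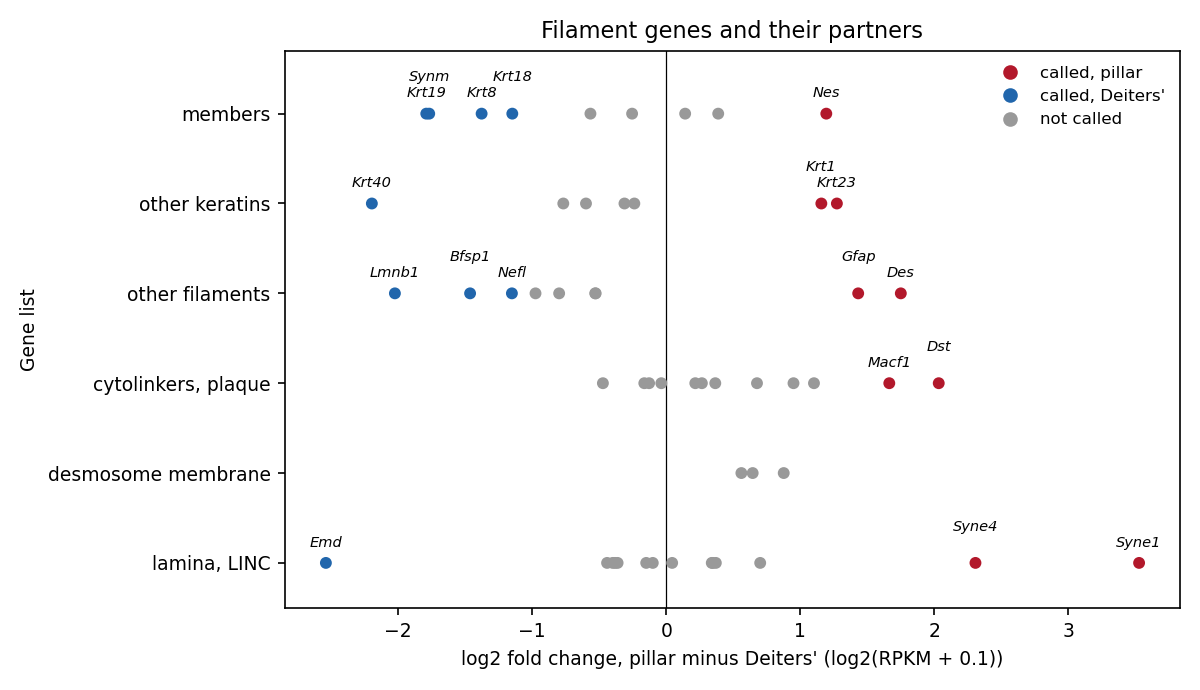
Log2 fold change, pillar minus Deiters', of each tested gene in the filament and partner lists, on the log2(RPKM + 0.1) scale; red marks genes called in pillar cells, blue those called in Deiters' cells and grey the rest. The 2 called cytolinkers, Dst at 2.03 and Macf1 at 1.66, lie to the right and the 4 called Deiters' members, between -1.79 and -1.15, to the left.

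Transcription factors of epithelial and mesenchymal cells were described beside the filaments. Of 14 epithelial factors 10 were tested, with 4 called higher in pillar cells, against 1 in Deiters' cells, and a median log2 fold change of 0.51. Ehf, called in pillar cells, was listed at 0 in Deiters' libraries and passed the filter through the pillar libraries alone. Klf5 had 87.3 ± 2.08 RPKM in pillar cells, against 10.8 ± 0.575 RPKM in Deiters' cells (log2 fold change 3.01, limma adjusted p = 7.0e-08), while Elf3 had 1.91 ± 0.183 RPKM in pillar cells, against 6.08 ± 0.620 RPKM in Deiters' cells (log2 fold change -1.62, limma adjusted p = 1.8e-05). Of 8 mesenchymal factors, Snai2, Twist1, Twist2 and Foxc2 were called higher in pillar cells, against 0 in Deiters' cells (limma; also 0 at an unadjusted p under 0.05), with sums of 7.45 to 8.11 RPKM in pillar libraries and 2.57 to 3.61 RPKM in Deiters' libraries.

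By order of level, pillar cells ran Krt19, Vim, Krt18, Lmna, Krt8, Krt10, Synm, Nes, Krt7 and Krt5, and Deiters' cells Krt19, Krt18, Vim, Krt8, Lmna, Krt10, Synm, Krt7, Nes and Krt5. The ranges over libraries of neighbours in either order did not overlap. The order of Vim depends on the length used: the shortest length that turned its RPKM into whole reads in all lanes was 2350 bases, while the annotated exons of Vim span 4743 bases, by which it would have 15.5 RPKM in pillar cells, against 18.6 RPKM in Deiters' cells, below Krt18 in both. Length does not touch the comparison of the cell types. The sum over the 10 genes was 139.1 to 147.1 RPKM in pillar libraries and 332.0 to 337.7 RPKM in Deiters' libraries.

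The reads behind the values, worked out from the steps of the RPKM, came to 19101447 to 20189861 per pillar library and 18641354 to 21557584 per Deiters' library, and markers of other cells differed between them. All 9 tested hair cell markers were called higher in pillar cells, with a sum over 10 of 439.3 to 469.3 RPKM in pillar libraries and 97.8 to 104.3 RPKM in Deiters' libraries, and Atoh1 at 0 in both. For markers of Hensen's cells, Claudius' cells and the outer sulcus, neighbours of the Deiters' cells, 2 of 10 were called in the pillar direction and 6 in the Deiters' direction, with sums of 1072 to 1077 RPKM in pillar libraries and 5194 to 5369 RPKM in Deiters' libraries. These sums, like those of the other lists here, rest largely on the most abundant genes. Epyc alone had 707 RPKM in pillar cells, against 4221 RPKM in Deiters' cells. Fibroblast and fibrocyte markers were called higher in pillar cells in 6 of 10 and in Deiters' cells in 1, with sums of 2904 to 2924 RPKM in pillar libraries and 1622 to 1654 RPKM in Deiters' libraries. Otos and Coch had 1791 and 702 RPKM in pillar cells, against 500 and 230 RPKM in Deiters' cells. Lum, the 1 called in Deiters' cells, had 270 RPKM in pillar cells, against 851 RPKM in Deiters' cells. Endothelial and pericyte markers, with Tie1 at 0 in pillar libraries, summed to 13.6 to 14.6 RPKM in pillar libraries and 5.64 to 5.98 RPKM in Deiters' libraries, and 4 of 8 tested were called in pillar cells, against 0 in Deiters' cells (limma; 1 at an unadjusted p under 0.05). Leukocyte markers, with Adgre1 at 0 in Deiters' libraries, summed to 425.8 to 448.8 RPKM in pillar libraries and 246.7 to 273.5 RPKM in Deiters' libraries, with 7 of 10 called in pillar cells, against 1 in Deiters' cells. Schwann cell and neuron markers, a list that also holds Nefl and Nefm, summed to 84.8 to 91.8 RPKM in pillar libraries and 113.2 to 117.4 RPKM in Deiters' libraries, with 1 of 9 tested called in pillar cells, against 3 in Deiters' cells, and Prph at 0 in both. Among the called genes of these lists, Pecam1 and Adgre1 passed the filter through the pillar libraries alone. Prg2, with 0.0417 RPKM in pillar cells, against 67.7 RPKM in Deiters' cells, and Pmp2 passed it through the Deiters' libraries alone. The part of these other cell types in the levels of Vim, Des, Gfap, Nes, Nefl, Synm and the keratins was not tested. For layered epithelium, 3 of 9 markers were tested, Krt1 and Sfn being called in pillar cells, and Lor, listed at 0 in pillar libraries, in Deiters' cells. Krt14, Krt5, Krt6a and Dsg3 were at 0 in both. Trp63 and Ivl were under the filter, at 0 in pillar libraries, with means of 0.01 and 0.0366 RPKM in Deiters' libraries. Krt1 passed the filter through the pillar libraries alone and Lor through the Deiters' libraries alone.

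The labels were set beside markers of supporting cells in general and of pillar cells, with no list for Deiters' cells alone. Of 12 general supporting cell markers 11 were tested, with 5 called higher in pillar cells, against 0 in Deiters' cells (limma; 3 at an unadjusted p under 0.05). Slc1a3, Sox2, Jag1 and Otoa were among those called, Slc1a3 with 213 RPKM in pillar cells, against 5.53 RPKM in Deiters' cells. Otoa also stands in the list of Hensen's cell, Claudius' cell and outer sulcus markers. The gap junction gene Gjb2 went the other way, with 766 to 780 RPKM in pillar libraries and 1123 to 1167 RPKM in Deiters' libraries. Its log2 fold change of -0.57 passed the adjusted p (3.9e-06, limma) but not the 2-fold difference. Of 8 tested pillar cell markers, 3 were called higher in pillar cells, among them S100a6 with 42.2 ± 1.50 RPKM in pillar cells, against 2.70 ± 0.330 RPKM in Deiters' cells, and 2 in Deiters' cells. The 2 called there were Npy and the filament chaperone gene Cryab. Npy was listed at 0 in pillar libraries and had 0.574, 0.549 and 0.0945 RPKM in Deiters' libraries, through which alone it passed the filter. Bmp2, called in pillar cells at 3.93 RPKM, against 0.0333 RPKM in Deiters' cells, passed the filter through the pillar libraries alone. Of the others, Cd44 had 18.7 ± 0.796 RPKM in pillar cells, against 30.9 ± 1.54 RPKM in Deiters' cells (SD, n = 3 each), and passed the adjusted p in the Deiters' direction (2.7e-05, limma) but not the 2-fold difference. Ngfr was under the 0.1 RPKM filter and not tested, with 0.0143, 0 and 0.0305 RPKM in pillar libraries, against 0.0136, 0.105 and 0.124 RPKM in Deiters' libraries, which overlap.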

How the data were processed

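RNA of 6 libraries, 3 of pillar cells and 3 of Deiters' cells, was sequenced as paired ends in 2 lanes each. CLC Genomics Workbench was used by the authors for mapping to GRCm38 (mm10), and the deposited values are RPKM per lane, for 48440 features. The annotation release is not given in the sources used here. The tool's version is not given there either. The labels and the methods differ in the name of the amplification kit and slightly in the upper age limit, and the age given is that of the labels.

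Lane values were averaged and each library was 1 replicate. Genes averaging over 0.1 RPKM in pillar or Deiters' libraries, 17188 in all, were tested on log2(RPKM + 0.1) by limma (version 3.58.1 under R 4.3.3; eBayes with a variance trend, no covariate) with Benjamini-Hochberg adjustment. A call needed an adjusted p of at most 0.01 and 2-fold. Simulated libraries with a coefficient of variation of 10% were used to test the fit. Of the genes changed 2-fold upward, drawn from those above 1 RPKM, 50 of 50 passed the adjusted p among 16355 genes tested. This count leaves out the 2-fold threshold of a call, and the simulated noise held no counting error. The 4 ratios were formed per library and compared by exact two-sided permutation (scipy 1.17.1), which cannot go below p = 0.1. Exon lengths from GENCODE M21, or for 4 of the 9 genes with reads (Krt7, Krt8, Krt18 and Vim) the shortest length that made all lanes whole, turned RPKM into reads, whole to within 0.002. Copies were searched with BLAST 2.17.0 (at least 90% identity over 200 bases). The reads worked out from the RPKM steps came to 18641354 to 21557584 per library, fewer than the sequencing depth named in the study's methods. The p-values measure the spread between libraries, which may share mice and differ in their mix of 2 sets of lanes. Counting errors cover counting alone, since reads carry no molecular identifiers.

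The 10 genes and the lists were chosen with earlier results of these data known. All 10 genes, every other keratin above 0.1 RPKM and, of each other list, the called genes (at most the 4 with the smallest p) were to be named, with markers at 0. For the epithelial factors and the lists of cell type markers, not all of these genes are named above. Plec, Dsp, Jup, Dtna, Pkp4, Cd44, Nefm, Nefh, Ina, Lmnb2, Dsg2, Dsc2, Perp, Gjb2, Ngfr, Trp63 and Ivl were named after their values were seen. Alternatives changed the pseudocount, filter, scaling, threshold, variance trend and lanes, added the library number as a block, or left out a library. The result of 1 further gene list is not reported here.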

Additional observations from a re-analysis of the deposited data

How the results depend on the processing

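Over the settings in which each was computed, 19 for most of the 10 genes, 18 for Krt7 and Nes and 11 for the ratios, no difference of the 9 tested genes or of the 4 ratios turned its direction. Other genes were not followed over settings. The 4 genes called higher in Deiters' cells remained 4 under each of them, and leaving out each library in turn gave 4 to 4 there and 1 to 1 in pillar cells. The pillar count fell to 0 with a pseudocount of 1 RPKM, where Nes had a log2 fold change of 0.34 (limma adjusted p = 0.00054), and to 0 with a filter above 1 RPKM, which leaves Nes and Krt7 untested. A pseudocount of 1 RPKM lowers the log2 fold change of low genes by construction. Over all genes these settings gave 1001 pillar and 778 Deiters' calls, and 1572 pillar and 1224 Deiters' calls, against 2534 pillar and 2404 Deiters' calls. Centring on expressed genes moved the median log2 fold change of all genes to -0.12, and that of Krt10 to 0.02. The adjusted p of Lmna was then 0.0102, and that of Vim 0.018 in lane set 1. Deviations of libraries of the same number correlated with mixed sign (r = -0.286, 0.380 and 0.318), as did those of other numbers (r from -0.407 to 0.347). With 3 libraries per cell type, these values cannot show whether the numbers pair them. The replicate block gave 1 pillar call and 4 Deiters' calls, and over all genes 2450 and 2253, and the 4 ratios, paired by number, cannot go below an exact p of 0.25. Lanes fell into 2 sets by their main axis of deviation within a cell type, and each set alone, added after the data were seen, gave 1 and 4 calls. Set 1 lacks the second pillar library and set 2 the third Deiters' library. Nes, with 14 to 20 reads in a Deiters' library, and Krt7 are limited by depth.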
